A study of Arabidopsis thaliana with 6 samples.

Results

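The 10 genes described here encode the core of the machinery that plants build around RNA polymerases IV and V. They were taken by locus, as NRPD1, NRPE1, NRPD2, DRD1, DMS3, RDM1, SHH1, CLSY1, KTF1 and IDN2, and all 10 had an intensity on every array, among 30361 gene models measured. The samples were young leaves of Arabidopsis thaliana of 3 genotypes, wild type Col-0, a kyp mutant and a cmt3 mutant, from untreated plants 4 weeks old on soil under long days. Each genotype had 2 one-colour NimbleGen arrays, 6 in all, labelled replicates 1 and 2. Alleles are not named in the labels, which also do not say whether replicates came from separate plants, so every p-value here measures the spread between arrays, which may be technical. KYP (SUVH4) is a histone methyltransferase for lysine 9 of histone H3, CMT3 is a DNA methyltransferase for CHG sites, and each enzyme recruits or feeds the other in maintaining silent chromatin.

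RNA-directed DNA methylation is the pathway that brings cytosine methylation to transposons and repeats through small RNAs. Pol IV is guided to methylated histone H3 and makes the precursors of small interfering RNAs, which an RNA-dependent polymerase, a Dicer enzyme and an Argonaute protein process and load. Pol V makes scaffold transcripts at the same loci, on which the loaded Argonaute is held while the methyltransferase DRM2 acts. The genes tested here therefore belong to a route of DNA methylation that runs beside the KYP and CMT3 route, and the comparisons ask whether their transcripts changed in leaves when either gene of that other route was mutated.

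None of the 10 genes was called in either mutant. In kyp the changes from wild type lay between -0.20 (CLSY1) and 0.26 (DMS3) on the log2 scale, and in cmt3 between -0.28 (CLSY1) and 0.44 (DMS3). A call needed a Benjamini-Hochberg adjusted p under 0.05 in limma over all 30361 models. The count of called members was thus 0 of 10 in kyp, where 0.105% of all models were called (0.0988% higher and 0.00659% lower). It was 0 of 10 in cmt3, where 0.741% were called (0.56% higher and 0.181% lower), and 0 of 10 between kyp and cmt3, where 0.0296% were called (0.00988% higher and 0.0198% lower in kyp). At an unadjusted p under 0.05 the members numbered 0 in kyp, 2 in cmt3 (SHH1 and DMS3) and 1 between the mutants (SHH1), against 10.2%, 23% and 12.5% of all models. Counts of 0 are close to what these backgrounds give for 10 genes, so they say nothing particular about the pathway.

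The size of change that the arrays leave room for is given by the 95% intervals of limma, which are not adjusted for the number of genes. For kyp against wild type the intervals of all 10 genes lay within -0.50 and 0.66, so that rises above 1.58-fold and falls beyond 1.41-fold were outside every interval. For cmt3 against wild type they lay within -0.57 and 0.84, or a fall of 1.49-fold and a rise of 1.79-fold. These intervals assume no difference between slides, which are described below. In a fit blocked on slide the standard errors of all 10 genes were larger in every comparison. For cmt3 that fit gave 0.56 ± 0.28 for DMS3 and 0.16 ± 0.31 for RDM1, so it leaves room for larger changes. The smallest change called among all models was 0.87 in cmt3 (1.82-fold) and 1.65 in kyp (3.14-fold), so no change as small as those of the members was called in either mutant. The median absolute change of the members was 0.06 in kyp and 0.14 in cmt3, compared with 0.19 and 0.28 over all models. Among the 9681 models whose mean intensity lay between those of the lowest and highest member it was 0.14 and 0.23. The spread between replicates was smaller for the members too, with a median SD of 0.10 on the log2 scale against 0.20 over all models and 0.11 in that intensity range.

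**Figure D1:**
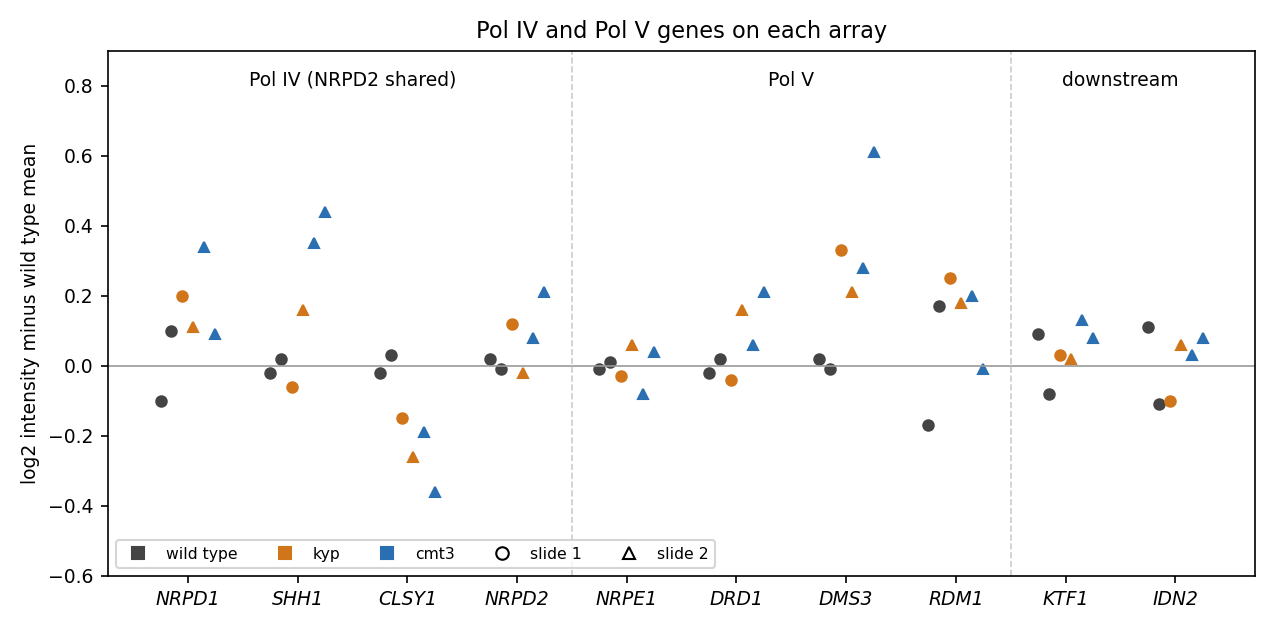
Log2 intensity of each of the 10 genes on each of the 6 arrays, minus the wild type mean of that gene. Colour gives the genotype and shape the slide; the dashed lines separate the genes by role. Most points lie within 0.3 of the wild type mean, and the highest is cmt3 replicate 2 for DMS3.

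The image names of the arrays carry 2 different numbers, which were taken here as 2 slides; nothing else in the sources used here states the slide, and every value given by slide rests on that reading. On this reading slide 1 held both wild type arrays and kyp replicate 1, slide 2 the other kyp array and both of cmt3. Slide and genotype are therefore partly confounded: no slide holds both wild type and cmt3. With slide as a block, wild type and cmt3 are linked through the kyp arrays alone, and none of the 30361 models was called in any comparison. Levels on the slides did not overlap for 3 of the 10 genes, of which SHH1 and DRD1 were higher and CLSY1 lower on slide 2. Over all models 15.9% were higher and 12.7% lower on slide 2 without overlap. In RNA of whole leaves, fewer cells of a type and less RNA per cell cannot be told apart.

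NRPD1 (AT1G63020, chromosome 1, 23358682 to 23364791) encodes the largest subunit of Pol IV and carries its active site. Its log2 intensity was 9.80 and 10 in wild type, 10.10 and 10.01 in kyp, and 10.24 and 9.99 in cmt3. Both kyp arrays lay just above both wild type arrays, whereas the cmt3 arrays spanned the upper wild type value. The changes were 0.16 ± 0.14 (SE) in kyp (adjusted p = 0.749) and 0.21 ± 0.14 in cmt3 (adjusted p = 0.43), 1.11-fold and 1.16-fold. The kyp change was 0.06 with wild type replicate 1 left out and 0.25 with replicate 2 left out. The cmt3 change was 0.12 without wild type replicate 1, 0.09 without cmt3 replicate 1 and 0.34 without cmt3 replicate 2. NRPD1 lies 2.89 Mb from CMT3 on chromosome 1, and the part of linkage in its cmt3 value was not tested.

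SHH1 (AT1G15215, chromosome 1, 5238078 to 5240046) encodes a homeodomain protein that reads methylated lysine 9 of histone H3, the mark KYP places, and recruits Pol IV. Its levels were 10.41 and 10.45 in wild type, 10.37 and 10.59 in kyp, and 10.78 and 10.87 in cmt3. Both cmt3 arrays stood above the other 4, and the kyp arrays lay on either side of wild type. The change in cmt3 was 0.40 ± 0.12 (1.32-fold, 95% interval 0.08 to 0.71), the smallest p of the members, and it missed the threshold (adjusted p = 0.161). In kyp it was 0.05 ± 0.12 (adjusted p = 0.921). SHH1 was also lower in kyp than in cmt3, by -0.35 ± 0.12, again without passing (adjusted p = 0.382). Its 3 arrays on slide 1 reached at most 10.45 and its 3 on slide 2 at least 10.59, and a fit blocked on slide gave 0.18 ± 0.18 for cmt3 (adjusted p = 0.825).

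CLSY1 (AT3G42670, chromosome 3, 14766784 to 14771071) encodes a chromatin remodeller of the SNF2 type that works with Pol IV and SHH1. It was at 10.46 and 10.51 in wild type, 10.33 and 10.22 in kyp, and 10.29 and 10.12 in cmt3. It was the one gene of the 10 with all 4 mutant arrays below both wild type arrays. The differences, -0.20 ± 0.11 in kyp (adjusted p = 0.604) and -0.28 ± 0.11 in cmt3 (adjusted p = 0.236), did not pass. With the slide as a block the differences were -0.15 ± 0.14 in kyp and -0.17 ± 0.20 in cmt3. Slide 2 arrays (10.12 to 10.29) lay below slide 1 arrays (10.33 to 10.51), of which kyp replicate 1 was the lowest.

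NRPD2 (AT3G23780, chromosome 3, 8567738 to 8574197) encodes the second-largest subunit, which Pol IV and Pol V share. Its levels were 13.42 and 13.39 in wild type, 13.52 and 13.38 in kyp, and 13.48 and 13.61 in cmt3. The kyp arrays lay on either side of wild type and the cmt3 arrays just above it. The changes were 0.04 ± 0.11 in kyp (adjusted p = 0.921) and 0.14 ± 0.11 in cmt3 (adjusted p = 0.486), the latter 0.28 ± 0.19 when blocked on slide and 0.08 without cmt3 replicate 2. NRPD2B (AT3G18090), a closely related copy named here after its values were seen, gave 0.03 ± 0.16 and 0.07 ± 0.16, from 12.39 ± 0.06 (SD, n = 2) in wild type, and 0.22 ± 0.13 and 0.44 ± 0.19 when blocked on slide. Cross-hybridisation between the copies was not tested.

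Of the genes on the Pol V side, NRPE1 (AT2G40030, chromosome 2, 16722167 to 16730659) varied least across the 6 arrays. It encodes the largest subunit of Pol V, whose C-terminal extension binds Argonaute proteins. Its log2 intensity was 12.17 and 12.19 in wild type, 12.15 and 12.24 in kyp, and 12.10 and 12.22 in cmt3, a full range of 0.14. In both mutants the arrays lay on either side of the wild type pair. The changes were 0.01 ± 0.10 in kyp (adjusted p = 0.978) and -0.02 ± 0.10 in cmt3 (adjusted p = 0.916), and the intervals of -0.25 to 0.28 and -0.29 to 0.24 were the narrowest of the members.

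DRD1, DMS3 and RDM1 encode the DDR complex, which is needed for Pol V to engage chromatin. DRD1 (AT2G16390, chromosome 2, 7104720 to 7108178), a remodeller of the SNF2 type, was at 11.84 and 11.88 in wild type, 11.82 and 12.02 in kyp, and 11.92 and 12.07 in cmt3. Its order followed the slide, with slide 1 arrays at 11.82 to 11.88 and slide 2 arrays at 11.92 to 12.07. The cmt3 change of 0.14 ± 0.12 (adjusted p = 0.545) was -0.06 ± 0.20 in a fit blocked on slide and 0.22 or 0.06 without cmt3 replicate 1 or 2, and the kyp change was 0.07 ± 0.12 (adjusted p = 0.892).

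DMS3 (AT3G49250, chromosome 3, 18269246 to 18271983), a protein related to the hinge of SMC proteins, had the widest range of the 10. It was at 11.26 and 11.23 in wild type, 11.57 and 11.45 in kyp, and 11.52 and 11.85 in cmt3. All 4 mutant arrays stood above both wild type arrays, the kyp array on slide 1 among them. Its changes, 0.26 ± 0.15 in kyp (1.20-fold, adjusted p = 0.613) and 0.44 ± 0.15 in cmt3 (1.36-fold, 95% interval 0.05 to 0.84, adjusted p = 0.188), did not pass. Blocked on slide they were 0.32 ± 0.20 and 0.56 ± 0.28, and the cmt3 change was 0.61 without cmt3 replicate 1 and 0.28 without cmt3 replicate 2.

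RDM1 (AT3G22680, chromosome 3, 8019736 to 8020515), a small protein that binds methylated single-stranded DNA, was at 10.46 and 10.80 in wild type, 10.88 and 10.81 in kyp, and 10.83 and 10.62 in cmt3. The wild type arrays differed from each other by more than the genotype means did. Its changes were 0.21 ± 0.16 in kyp (adjusted p = 0.705) and 0.09 ± 0.16 in cmt3 (adjusted p = 0.774), with the largest standard error of the members. Without wild type replicate 1 the kyp change was 0.04, and without wild type replicate 2 it was 0.38.

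KTF1 and IDN2 act on the Pol V transcripts. KTF1 (AT5G04290, chromosome 5, 1196070 to 1202654), which resembles the elongation factor SPT5 and binds AGO4 and RNA, was at 11.87 and 11.70 in wild type, 11.81 and 11.80 in kyp, and 11.91 and 11.86 in cmt3. IDN2 (AT3G48670, chromosome 3, 18041820 to 18045014), an XS-domain protein that binds double-stranded RNA, was at 12.95 and 12.73, 12.74 and 12.90, and 12.87 and 12.92 in the same order. For both genes the mutant arrays overlapped those of wild type. KTF1 differed by 0.02 ± 0.10 in kyp (adjusted p = 0.966) and 0.10 ± 0.10 in cmt3 (adjusted p = 0.603), IDN2 by -0.02 ± 0.13 (adjusted p = 0.97) and 0.05 ± 0.13 (adjusted p = 0.841). KTF1 lies 3.30 Mb from KYP on chromosome 5.

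**Figure D2:**
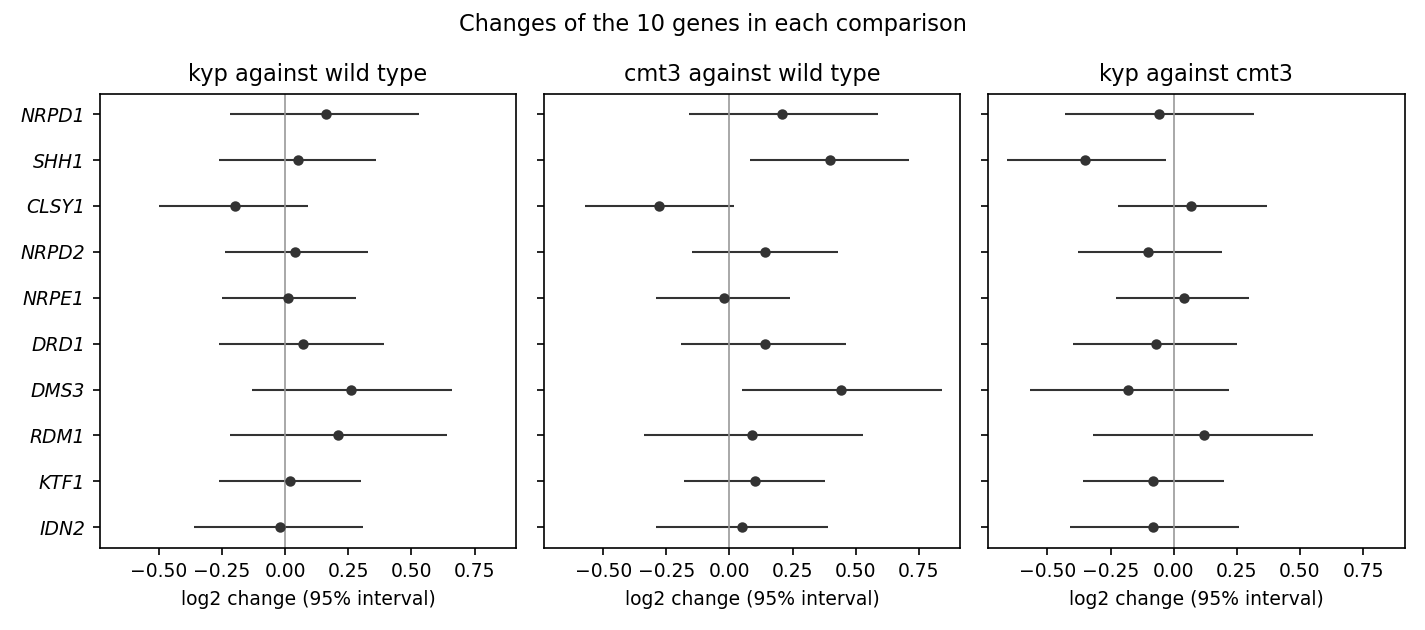
Log2 change of each of the 10 genes in the 3 comparisons, with 95% intervals from limma over all 6 arrays. Only the intervals of SHH1 and DMS3 in cmt3 and of SHH1 between kyp and cmt3 leave out 0, and none of these passed after adjustment.

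By role, the 4 genes on the Pol IV side (NRPD1, SHH1, CLSY1 and NRPD2) had a median change of 0.05 in kyp and 0.18 in cmt3. The 5 on the Pol V side (NRPE1, NRPD2, DRD1, DMS3 and RDM1) had medians of 0.07 and 0.14, and KTF1 and IDN2 were within 0.10 of wild type in both mutants. NRPD2 counts in both groups. Over all 10 genes the median was 0.05 in kyp and 0.12 in cmt3, beside 0.00 and 0.03 over all models. Among the 9681 models in the intensity range of the members it was 0.01 and 0.05. Without overlap of the groups, 3 members were higher in kyp than in wild type (NRPD1, DMS3 and RDM1) and 1 was lower (CLSY1), as were 23% and 22% of all models. In cmt3 these counts were 4 (NRPD2, DRD1, DMS3 and SHH1) and 1 (CLSY1), against 32.4% and 25%. Both sets of counts were near the shares over all models. The kyp and cmt3 changes share the wild type arrays and are therefore not independent of each other.

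Between the mutants, the members differed by -0.35 (SHH1) to 0.12 (RDM1), kyp minus cmt3, with a median of -0.07. Both kyp arrays lay below both cmt3 arrays for SHH1 and KTF1, 2 of 10, and 28% of all models did so. No member had both kyp arrays above both cmt3 arrays, against 20.3%. The 95% intervals of this difference lay within -0.66 and 0.55 for all 10 genes, or folds of 1.58 and 1.46.

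Because SHH1 had the smallest p of the members in cmt3, its profile was set against those of 15037 models whose genotype means ranged at least as widely. The nearest by root mean square difference over the 6 arrays, after each profile was centred on its mean, was GCR1 (AT1G48270) at 0.029 log2 units, followed by PSF1 (AT1G80190) at 0.033, AT3G05270 at 0.034, AT1G27690 at 0.035 and AT5G48640 at 0.036. GCR1 was at 10.68 and 10.68 in wild type, 10.63 and 10.89 in kyp, and 11.01 and 11.17 in cmt3. In all 5 models, as in SHH1, every slide 2 array was above every slide 1 array. This follows from picking them by likeness to SHH1 on these same arrays, and says nothing further about slide.

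The rest of the pathway was represented by 28 further genes, among them RDR2, DCL3, AGO4, DRM2, the CLSY1 relatives CLSY2 to CLSY4, the IDN2 relatives FDM1 to FDM5, and small subunits of Pol IV and Pol V. None of them was called, higher or lower, in kyp or in cmt3, beside 0.105% and 0.741% of all models. Their median changes were -0.00 and 0.02. At an unadjusted p under 0.05 stood 1 of 28 in kyp and 4 of 28 in cmt3, against 10.2% and 23% of all models. With so few genes these counts say nothing particular about the list. RDR2, the polymerase that copies Pol IV transcripts, was at 0.11 in kyp and 0.12 in cmt3. DCL3, which dices them, was at 0.10 and 0.06, and DRM2, the methyltransferase at the end of the pathway, at 0.04 and 0.15. DRM2 and DRM1 lie 0.21 and 0.49 Mb from KYP on chromosome 5, and the part of linkage in their kyp values was not tested.

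FDM4 (AT1G13790), a relative of IDN2, came nearest to a call. Its log2 intensity was 11.75 and 11.80 in wild type, 11.70 and 11.48 in kyp, and 10.86 and 10.78 in cmt3. Both cmt3 arrays lay well below the other 4. Slide 2 arrays (10.78 to 11.48) also lay below slide 1 arrays (11.70 to 11.80). The change in cmt3 was -0.96 ± 0.12 (adjusted p = 0.0716, limma), 1.94-fold lower, and kyp stood at -0.19 ± 0.12 (adjusted p = 0.656). FDM4 was called in cmt3 when the variance prior followed intensity (adjusted p = 0.0174), when 100 was added before the log (adjusted p = 0.0303) and without the dimmest 25% of models (adjusted p = 0.0403). Blocked on slide it was at -0.73 (adjusted p = 0.567). IDN2 itself was at 0.05 in cmt3, and the other relatives ranged from -0.19 (FDM1) to 0.28 (FDM3).

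Among polymerase subunits, NRPD4, which Pol IV and Pol V share, was at 8.01 and 7.59 in wild type, 8.04 and 7.47 in kyp, and 7.11 and 6.64 in cmt3. Both cmt3 arrays were lowest, but the replicates of each genotype also differed by over 0.4. Its change of -0.92 ± 0.30 in cmt3 did not pass (adjusted p = 0.181) and was -0.35 when blocked on slide. Slide 2 arrays of NRPD4 (6.64 to 7.47) lay below slide 1 arrays (7.59 to 8.04). NRPE5, the fifth subunit as used in Pol V, was at 0.31 ± 0.09 in cmt3 (adjusted p = 0.168). In kyp it was at 0.23 ± 0.09 (adjusted p = 0.508, limma). NRPE9B was at 0.39 ± 0.15 in kyp (adjusted p = 0.494) and 0.37 ± 0.15 in cmt3 (adjusted p = 0.244, limma). For both genes every slide 2 array was above every slide 1 array. Blocked on slide, NRPE5 was at 0.20 in cmt3 and 0.18 in kyp, and NRPE9B at 0.24 in kyp and 0.07 in cmt3. AGO4, the main Argonaute of the pathway, was at 0.26 ± 0.09 in kyp (adjusted p = 0.476). In cmt3 AGO4 was at 0.15 ± 0.09 (adjusted p = 0.402, limma). SUVR2, a SET-domain protein that works with remodellers, was at 0.26 ± 0.10 in kyp (adjusted p = 0.496). In cmt3 SUVR2 was at 0.28 ± 0.10 (adjusted p = 0.2, limma).

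Signal was low for 4 of the 28 genes, AGO9, DRM1, CLSY3 and CLSY4, which lay under the 25th percentile on every array. All 10 members lay between the 49.3 and 84.1 percentiles of their arrays. CLSY1 was at 10.12 to 10.51 across arrays, whereas CLSY3 and CLSY4 never exceeded 5.73 and 5.91. Different probes respond differently, so these figures describe how much signal lies behind each gene and do not rank transcripts.

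**Figure D3:**
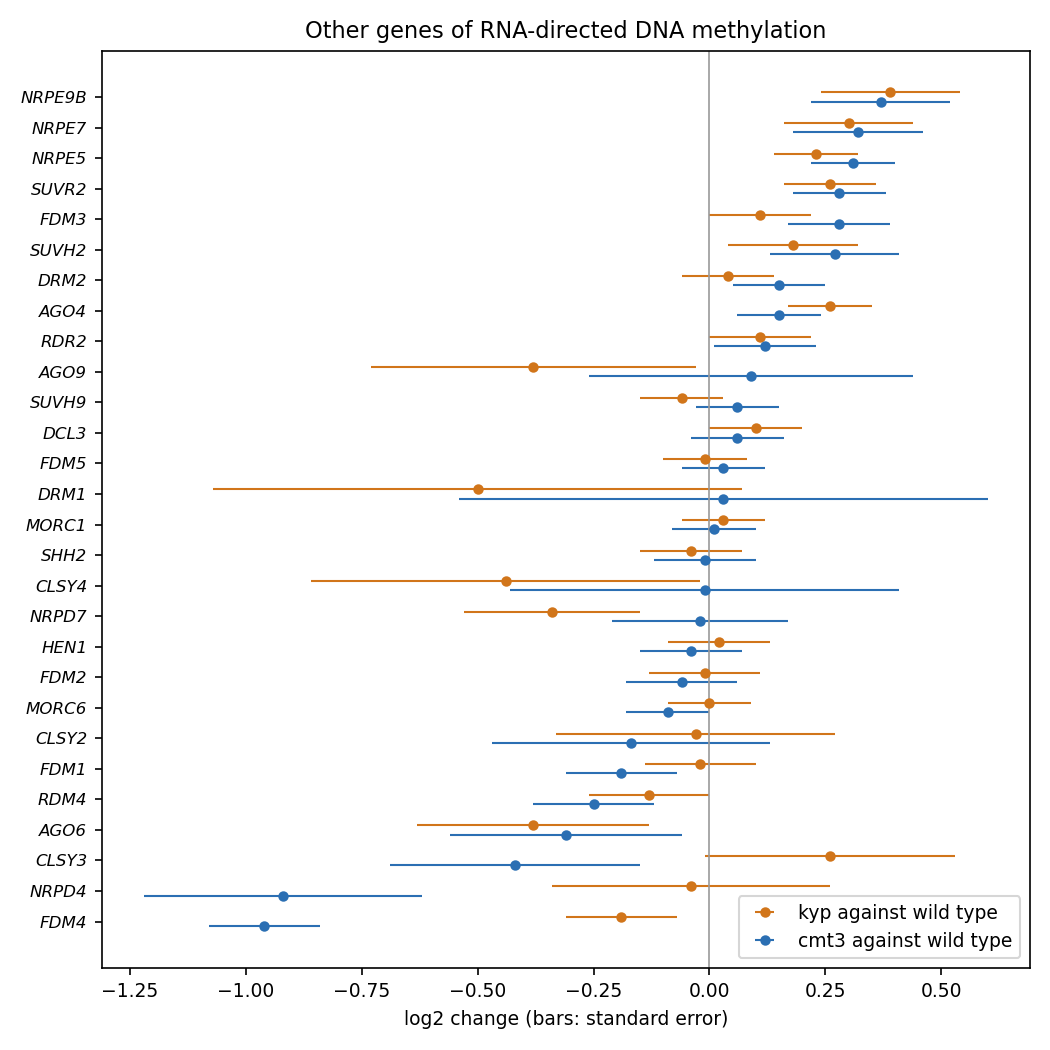
Log2 change in kyp and in cmt3 of 28 other genes of RNA-directed DNA methylation, ordered by the cmt3 change, with standard errors from limma. FDM4 and NRPD4 in cmt3, at -0.96 and -0.92, lie apart from the rest, and the widest bars belong to genes of low signal such as DRM1.

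The 2 largest subunits of each of RNA polymerases I, II and III, the relatives of NRPD1, NRPE1 and NRPD2, were set beside them. None of these 6 genes was called, beside 0.105% of all models in kyp and 0.741% in cmt3. Their median changes were 0.22 in kyp and 0.10 in cmt3. NRPA1 of RNA polymerase I had the smallest p. It was at 0.40 ± 0.10 in kyp (adjusted p = 0.378) and 0.33 ± 0.10 in cmt3 (adjusted p = 0.17, limma). Blocked on slide these changes were 0.32 ± 0.12 in kyp and 0.17 ± 0.17 in cmt3. Every slide 2 array of NRPA1 was above every slide 1 array. NRPC1 of RNA polymerase III was at 0.31 ± 0.10 and 0.23 ± 0.10, NRPA2 at 0.22 and 0.10. NRPB1 of RNA polymerase II, at 0.11 and 0.10, lay between 15.81 and 15.98, near the upper end of the scale at 15.99, where changes are compressed.

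Of 5 loci whose silencing or expression depends on DNA methylation, 1 was called in kyp and 3 in cmt3, all higher. Of all models, 0.0988% were called higher in kyp and 0.56% in cmt3. QQS, an orphan gene, was at 9.43 and 9.23 in wild type, 12.04 and 11.91 in kyp, and 11.56 and 11.69 in cmt3, and rose in both mutants (2.64 ± 0.13, adjusted p = 0.0211, and 2.29 ± 0.13, adjusted p = 0.0159, limma). SDC, which encodes an F-box protein and is kept silent by non-CG methylation, and AtMu1, a Mutator element, rose in cmt3 (2.40, adjusted p = 0.0432, and 3.67, adjusted p = 0.0246). In kyp they stood at 0.81 (adjusted p = 0.408) and 3.60 (adjusted p = 0.061, limma). AtMu1 was called in kyp with an intensity trend (adjusted p = 0.0119) and with 100 added before the log (adjusted p = 0.0239). It was also called there without the dimmest 25% of models (adjusted p = 0.0336). The call of SDC was lost when outlying variances were moderated robustly. No call of these loci was left with a replicate block or when the 4 arrays compared were fitted alone. None was left when blocked on slide either, where the changes were as large (QQS 2.71 in kyp and 2.42 in cmt3, SDC 2.57 and AtMu1 3.96 in cmt3) with standard errors of 0.16 to 0.47. ROS1, a DNA demethylase gene whose expression requires RNA-directed DNA methylation, was at 13.47 and 13.40 in wild type, 13.34 and 13.38 in kyp, and 13.24 and 13.29 in cmt3. These changes, -0.08 ± 0.09 in kyp (adjusted p = 0.813) and -0.17 ± 0.09 in cmt3 (adjusted p = 0.352), did not pass, although all 4 mutant arrays lay below wild type. FWA, silenced through tandem repeats, was at -1.10 ± 0.41 in kyp and -0.30 ± 0.41 in cmt3, from a low signal of 5.57 and 5.70 in wild type and 5.12 and 3.95 in kyp. Its changes were -0.52 and 0.86 when blocked on slide, and neither passed (adjusted p = 0.492 and 0.71). These loci were chosen with earlier results of these data known.

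**Figure D4:**
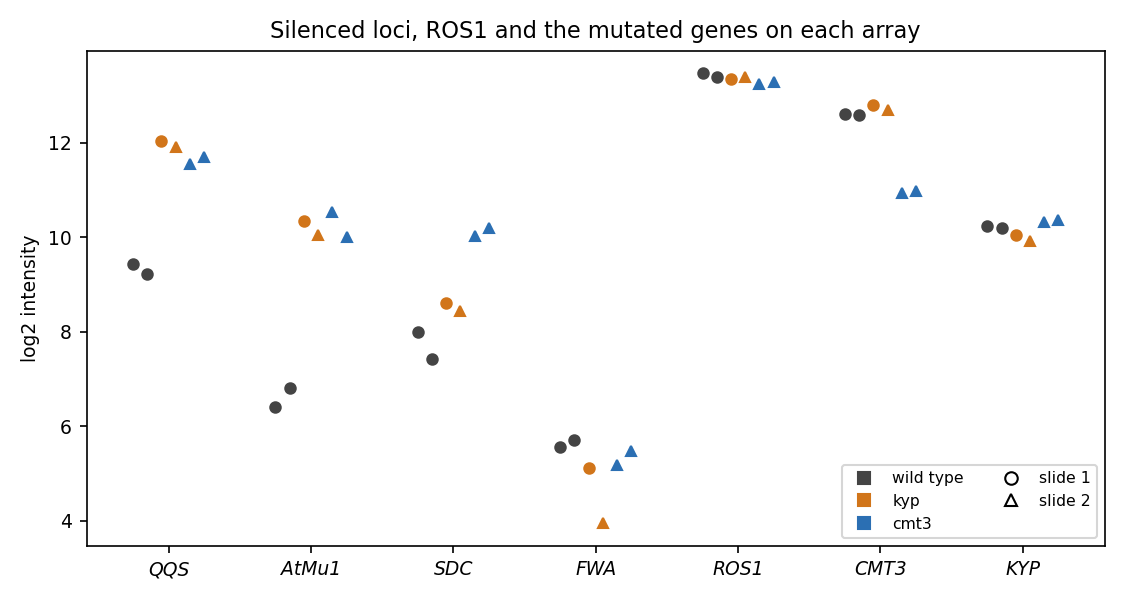
Log2 intensity on each array of 5 loci whose silencing or expression depends on DNA methylation and of the mutated genes. QQS and AtMu1 are higher on all 4 mutant arrays, SDC is highest in cmt3, ROS1 spans 13.24 to 13.47, and CMT3 is low in cmt3 alone.

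CMT3 transcript checked the cmt3 label, at 12.61 and 12.59 in wild type and 10.94 and 10.97 in cmt3 (-1.65 ± 0.09, adjusted p = 0.0159, limma). CMT3 was not called with a slide or replicate block or with the 4 arrays compared fitted alone. Blocked on slide its change was -1.56. KYP was at 10.24 and 10.19 in wild type and 10.04 and 9.91 in kyp (-0.24 ± 0.10, adjusted p = 0.515), and with no allele named its level checks nothing. Photosynthesis genes marking leaf (6) lay at 15.87 to 15.99, the top of the scale, while 3 of 4 root markers and 2 of 3 seed markers were under the 25th percentile on every array and 2 of 4 flower markers on some array. None of the root, flower, seed and reference genes (6) was called, beside 0.105% of all models in kyp and 0.741% in cmt3. Markers of dividing cells, 11 genes, had 0 called and median changes of 0.19 in kyp and 0.15 in cmt3, and the smallest p was that of the cyclin CYCB1;1, at 0.48 ± 0.09 in kyp (adjusted p = 0.296) and 0.23 ± 0.09 in cmt3. Their summed intensity ranged from 42550 to 49840 over the arrays, and their part in the small positive medians of the Pol IV and Pol V genes was not tested.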

How the data were processed

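Each array file holds 1 intensity per gene model, on a linear scale, which the authors deposited after RMA normalization, per the labels. Settings and software were not given in the sources used here. Values come from 1 to 3 probes (2 or 3 for each member) and equal those of the series table (0 differ). Loci and coordinates are those of the files, marked Release 6, and symbols come from RefSeq TAIR10.1, which matched 29976 of 30361 loci. CLSY2, CLSY3 and CLSY4 stand there as CHR42, chr31 and CHR40. No sequences were used here.

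On log2 intensities, limma (version 3.58.1, R 4.3.3) was run with lmFit and eBayes over all 6 arrays, with no filter and no block, leaving 3 residual degrees of freedom. The script was tested on simulated data. Errors are limma standard errors unless marked SD. The number of arrays, not a depth, limits precision.

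The members, the 10 other lists (75 genes) and the tests were chosen with earlier results of these data known. The naming rule took all members, called genes and the 3 smallest p-values of each list and mutant; marker and reference lists are mostly given as counts. NRPD2B and some pathway genes were named after their values were seen. Alternatives were an intensity trend, robust moderation, filtering, slide and replicate blocks, 2 renormalizations, an offset of 100, a threshold of 0.10, leaving out arrays and fitting 4 arrays. Same-numbered replicates did not deviate together (correlations -0.12, 0.00 and -0.04), so the numbers were not treated as pairs.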

Additional observations from a re-analysis of the deposited data

How the results depend on the processing

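The 10 genes gave 0 calls in each of the 3 comparisons under all 16 alternatives and, for kyp, under a crossed pairing, and their smallest adjusted p under any was 0.0981 (SHH1 in cmt3, without the dimmest 25% of models). The replicate block also gave 0 called members, and 0, 69 and 0 called models for kyp against wild type, cmt3 against wild type and kyp against cmt3, compared with 32, 225 and 9 without it. That pairing, with the kyp numbers crossed, was chosen after seeing the data because kyp and wild type deviated in opposite ways, and it gave 4 called models for kyp. In the same order the called models numbered 85, 2272 and 24 with an intensity trend, 63, 492 and 17 without the dimmest 25%, 77, 1107 and 51 with 100 added before the log, and 102, 1266 and 19 at an adjusted p under 0.10. They numbered 0, 0 and 0 with the slide as a block, and 0, 39 and 0 when the 4 arrays compared were fitted alone. Leaving out 1 array gave 0 for kyp against wild type, 32 to 84 for cmt3 and 0 between the mutants, in fits with fewer residual degrees of freedom. The cause of the other moves was not tested.

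The member changes were recomputed 470 times, and those taken within 1 slide were not checked for a turn in sign. Of the rest, 25 turned in sign, all from changes of at most 0.14. With the slide as a block NRPE1, DRD1 and SHH1 in kyp were at -0.03, -0.03 and -0.06, DRD1 and IDN2 in cmt3 at -0.06 and -0.10, and DRD1 and IDN2 between the mutants at 0.03 and 0.00. Leaving out 1 array moved NRPE1 in kyp from -0.03 to 0.06, NRPD2 from -0.02 to 0.11, DRD1 from -0.03 to 0.17, SHH1 from -0.06 to 0.16, KTF1 from -0.06 to 0.10 and IDN2 from -0.13 to 0.09. In cmt3 it moved NRPE1 from -0.08 to 0.04, RDM1 from -0.08 to 0.26 and IDN2 from -0.06 to 0.16. Between the mutants it moved NRPD1 from -0.18 to 0.07, NRPE1 from -0.02 to 0.10, DRD1 from -0.17 to 0.03, CLSY1 from -0.01 to 0.16 and IDN2 from -0.15 to 0.00.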
